A study of Zea mays with 12 samples.

Results

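Isocitrate lyase (icl1, GRMZM2G056369) and malate synthase (mas1, GRMZM2G102183) are 2 of the 39656 maize genes in the deposited tables and were followed here by their gene identifiers. They were chosen by their recovered reads in the aleurone libraries, where the lyase is nearly lost from the mutant, so every value of either gene in nkd against B73 aleurone is given as a description with no test. The tables hold 2 transcripts of icl1, of which 1 was at 0 in all 12 libraries, and 3 transcripts of mas1 with identical values.

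The glyoxylate cycle is a bypass of the citric acid cycle. Isocitrate lyase splits isocitrate into succinate and glyoxylate, and malate synthase joins glyoxylate to acetyl-CoA to give malate. In seeds the pathway is known from the peroxisomes (glyoxysomes) of tissues that store oil, the cereal aleurone and the scutellum of the embryo among them, where it lets the carbon of fatty acids be turned into sugar after germination.

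The groups were nkd aleurone, B73 aleurone, nkd starchy endosperm and B73 starchy endosperm, with 3 biological replicates each. B73 is the wild-type inbred line, and nkd, naked endosperm, carries mutations in the duplicate genes Nkd1 and Nkd2 for INDETERMINATE-domain zinc finger transcription factors, in plants of the 4th backcross to B73. Aleurone is the outer cell layer of the endosperm and starchy endosperm its storage interior; both were cut by laser from paraffin sections of kernels taken 15 days after pollination, and their polyadenylated RNA was amplified with T7 RNA polymerase in a pair of rounds before sequencing. The number of kernels behind a library is not stated in the labels, so p-values measure the spread between libraries.

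Depth ranged from 27012595 to 46118293 reads in nkd aleurone, from 9929041 to 64000784 in B73 aleurone, from 25766907 to 35474210 in nkd starchy endosperm and from 9570998 to 57706902 in B73 starchy endosperm. Nkd1 averaged 4063 ± 531.9 normalised reads in nkd aleurone and 6105 ± 756.3 in B73 aleurone, and Nkd2 589.2 ± 149.9 in nkd and 2522 ± 373.5 in B73 (SD, n = 3 each). Each gene was lower in every nkd library than in any B73 library of the same cell type. The same held for 16.8% of genes tested in aleurone and 10.0% in starchy endosperm. Nkd2 passed the test in aleurone (limma adjusted p 0.00259) but not in starchy endosperm (adjusted p 0.220). Nkd1 did not pass in aleurone (adjusted p 0.212) or in starchy endosperm (adjusted p 0.220). Aleurone markers (6 genes, with c1 at 0 in every aleurone library) summed to 5013 to 12182 CPM (counts scaled to library size) in nkd aleurone and 5901 to 10520 in B73 aleurone, against 228.2 to 811 CPM in nkd starchy endosperm and 551 to 2152 in B73 starchy endosperm. Starchy endosperm markers (30 genes, zeins above all) summed to 1391 to 7438 CPM in nkd aleurone and 132181 to 355809 in B73 aleurone, and to 39155 to 122209 in nkd starchy endosperm and 345405 to 782618 in B73 starchy endosperm, so B73 aleurone libraries also held many zein reads.

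Isocitrate lyase was close to absent from nkd aleurone. The 3 nkd aleurone libraries held 1, 0 and 0 icl1 reads, whereas B73 aleurone replicates 1, 2 and 3 held 1581, 41 and 2445. In normalised reads, the unit the authors deposited, these are 1.212, 0 and 0 in nkd aleurone and 1287, 155.4 and 1468 in B73 aleurone, with a B73 mean of 969.8 ± 711.1 (SD, n = 3). No nkd library reached any B73 library, and B73 replicate 2, the shallowest aleurone library, was far below the other B73 replicates.

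Reads of icl1 were pooled over libraries and scaled by library size times its TMM factor. The ratio of nkd aleurone to B73 aleurone was 0.000196, with an exact 95% interval of 4.96e-06 to 0.00109. The interval covers counting error only, and amplified reads are not independent molecules. A count of 0 allowed up to 0.0489 CPM in nkd replicate 2 and 0.0457 CPM in nkd replicate 3, taking 3 reads as the limit. In bulk samples fewer cells of a type and less RNA per cell cannot be told apart, so these values give the RNA of a captured area, not of a cell.

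The lyase was a well expressed gene in most B73 aleurone libraries: 89.2%, 62.9% and 90.7% of all genes had fewer reads in B73 replicates 1, 2 and 3. Of the 5423 genes whose B73 aleurone mean was at least that of icl1, icl1 was the 1 gene with at most 1 read over the nkd aleurone libraries. The log2 difference of icl1, nkd minus B73 on the log2(normalised reads + 1) scale, was -9.0, and 6 of the 26496 genes tested had a lower one. This placing describes the gene's choice and carries no test.

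Malate synthase was low but present in nkd aleurone. Its reads numbered 45, 80 and 100 in nkd aleurone replicates 1, 2 and 3, against 3367, 251 and 6808 in the B73 aleurone replicates. In normalised reads nkd aleurone held 54.54, 54.1 and 63.13, a mean of 57.26 ± 5.089, and B73 aleurone held 2740, 951.1 and 4086, a mean of 2592 ± 1573 (SD, n = 3 each).

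The nkd aleurone libraries differed from each other by at most 1.17-fold for mas1 and the B73 aleurone libraries by 4.30-fold, with B73 replicate 2 again the lowest. The groups did not overlap. The mean was 45.28-fold lower in nkd, and the log2 difference of -5.24 was exceeded in size, among falls, by 214 of 26496 genes. For both genes all nkd values lay below all B73 values, as did those of 16.8% of genes tested in aleurone; 8.28% of genes passed the test as lower (limma, adjusted p under 0.05). In nkd aleurone 53.2%, 55.5% and 55.0% of all genes had fewer reads than mas1, against 94.7%, 86.2% and 96.8% in B73 aleurone. Genes with no read are included in these shares. Counted from the top, mas1 ranked 18486 of 29535 detected genes, 17620 of 29290 and 17808 of 30673 in nkd aleurone replicates 1, 2 and 3.

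Marker genes of the cell types also differed between nkd and B73 aleurone, in both directions. Embryo markers (7 genes, the storage globulin glb1 and wox2A the highest of them) summed to 49.65 to 92.92 CPM in nkd aleurone, with reads for 7 of 7, and to 82.88 to 188.7 CPM in B73 aleurone, with reads for 6 of 7 and wus1 at 0. By mean CPM 3 of the 7 embryo markers were higher in nkd aleurone (kn1, wus1 and rab17) and 4 lower (lec1, wox2A, glb1 and glb2). The mean sum of starchy endosperm markers was 58.0-fold lower in nkd aleurone, all 30 having reads in both groups, and that of aleurone markers 1.10-fold higher. Of the 6 aleurone markers, cr4, vpp1 and LTP3 had a higher mean in nkd aleurone and Sal1 and ole1 a lower one. The oil body protein ole1, shown because oil is what the pathway draws on, was at 2530, 1480 and 2470 CPM in nkd aleurone and 6870, 2790 and 7410 CPM in B73 aleurone, with replicate 2 lowest in each genotype. The mean marker sums of 3 other tissues were higher in nkd aleurone, though the libraries of both genotypes overlapped for each. The sums were 8.509 to 223.1 CPM in nkd and 3.138 to 20.22 in B73 aleurone for the basal transfer layer. Reads were found for 9 of 9 markers in nkd and for 8 of 9 in B73, tcrr-1 at 0. Nkd replicate 3 gave the 223.1 CPM, and the nkd median of 15.24 CPM was below the B73 median of 19.04 CPM. For pericarp and nucellus the sums were 58.36 to 141.3 CPM in nkd (7 of 8) and 24.62 to 62.3 in B73 aleurone (8 of 8). The marker at 0 in nkd was the Laccase-17 gene GRMZM2G072808, while the other Laccase-17 genes had reads there. By mean CPM 6 of the 8 were higher in nkd aleurone and 2, expa1 and GRMZM2G072808, lower. For the embryo-surrounding region the sums ran from 1.183 to 16.11 CPM in nkd (5 of 5). In B73 aleurone they ran from 0 to 3.774 CPM (3 of 5, ae1 and ae3 at 0). Replicate 3 was the highest in both genotypes. The part of these markers in the loss of icl1 and mas1 reads was not tested.

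**Figure D1:**
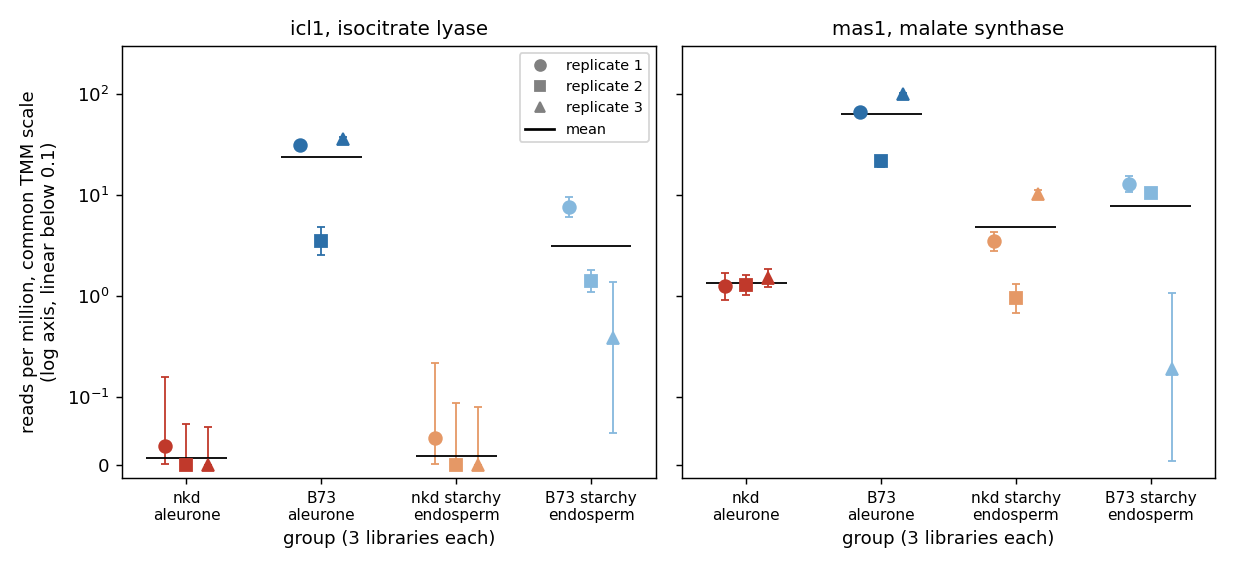
CPM on one TMM scale for icl1 (left) and mas1 (right) in each library, on an axis that is logarithmic above 0.1 and linear below; symbols mark replicates, bars the exact 95% counting interval and lines the group mean of 3 libraries. The nkd libraries of both cell types lie at or next to 0 for icl1, and for mas1 nkd aleurone lies at 1.27 to 1.52 CPM against 21.6 to 101.1 CPM in B73 aleurone.

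In starchy endosperm the lyase also had almost no reads in the mutant. Its choice rested on the aleurone libraries, but earlier results of these data were known, so starchy endosperm is no independent test. The nkd starchy endosperm libraries held 1, 0 and 0 icl1 reads, and B73 starchy endosperm replicates 1, 2 and 3 held 78, 64 and 2. Normalised reads were 0.8202, 0 and 0 in nkd and 166.3, 28.76 and 8.965 in B73, a B73 mean of 68.01 ± 85.7 (SD, n = 3). The groups did not overlap, which held in the same direction for 10.0% of the 24582 genes tested.

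The log2 difference of icl1 was -4.91 (SE 1.36, 95% interval -7.93 to -1.90). Its limma p was 0.00438 and its adjusted p 0.111, so it did not pass the test. The gene reached the filter, a mean of at least 5, only through its B73 libraries. With nkd at or next to 0 the size followed the pseudocount, at -3.04 with 5 and -5.70 with 0.5. In this comparison 1.78% of genes passed, 1.31% as lower. The pooled read ratio, nkd over B73, was 0.00387, with an exact 95% interval of 9.73e-05 to 0.0219 for counting error. The spread rested on B73, where replicate 1 was the highest and replicate 3, with 2 reads at the lowest depth of all libraries, the lowest. The log2 difference was -3.82 without B73 replicate 1 (adjusted p 0.353) and -5.85 without B73 replicate 3 (adjusted p 0.0836).

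Malate synthase did not pass the test in starchy endosperm. Its reads numbered 88, 39 and 437 in nkd replicates 1, 2 and 3 and 132, 471 and 1 in the B73 replicates. Normalised reads were 72.18, 19.74 and 221.5 in nkd starchy endosperm, a mean of 104.5 ± 104.7, and 281.4, 211.7 and 4.482 in B73 starchy endosperm, a mean of 165.9 ± 144.0 (SD, n = 3 each). The groups overlapped, and replicate 3 was the highest library of nkd and the lowest of B73.

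The log2 difference of mas1 was 0.01 (SE 1.43, limma adjusted p 0.998), and its 95% interval of -3.15 to 3.17 covers a change of either sign by several-fold. Without B73 replicate 3, with its single mas1 read, the log2 difference was -1.82 (adjusted p 0.404). Whether the effect of the genotype on mas1 differed between the cell types was not tested, because the aleurone libraries had served to choose the gene.

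Aleurone marker sums differed among the same starchy endosperm libraries. They were 228.2, 399.0 and 811 CPM in nkd replicates 1, 2 and 3, and 551, 2152 and 920.9 CPM in the B73 replicates. The mas1 levels in the same order were 3.48, 0.964 and 10.2 CPM in nkd and 13.0, 10.4 and 0.191 CPM in B73. Nkd replicate 3 was highest in both measures, whereas B73 replicate 1 had the highest mas1 level and the lowest aleurone marker sum of its group in CPM. Nkd replicate 3 also had the highest sums of basal transfer layer markers, at 381.7 CPM against 17.02 and 36.38 in nkd replicates 1 and 2, and of pericarp and nucellus markers, at 97.79 CPM against 27.83 and 41.49. In B73 starchy endosperm those sums ran from 2.162 to 29.27 and from 7.448 to 55.94 CPM. Embryo marker sums, with wus1 at 0 in both groups and wox2A the highest in nkd, ran from 30.35 to 53.45 CPM in nkd and from 26.74 to 75.63 in B73 starchy endosperm. Their part in the mas1 values was not tested.

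Within B73 both genes had higher mean levels in aleurone than in starchy endosperm, on a common CPM scale over all 12 libraries. For mas1 the levels were 66.4, 21.6 and 101.1 CPM in B73 aleurone and 13.0, 10.4 and 0.191 CPM in B73 starchy endosperm, with means of 63.07 ± 39.87 and 7.866 ± 6.767 CPM (SD, n = 3 each). The cell types did not overlap, as for 15.7% of the 26684 genes compared in that direction. Since the aleurone libraries had served to choose the pair, the comparisons of cell types carry no test for either gene.

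The log2 difference of mas1, aleurone minus starchy endosperm in B73, was 2.96 as fitted by edgeR. For comparison, the aleurone marker sum was 6.72-fold higher in B73 aleurone and mas1 8.02-fold higher, both as ratios of mean CPM. Most of that sum came from ole1 and vpp1. Of the 6 markers, 4 had a higher mean in B73 aleurone and 2 a lower one, namely cr4 and c1, the latter on 1 read.

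For icl1 the B73 levels were 31.2, 3.53 and 36.3 CPM in B73 aleurone and 7.67, 1.42 and 0.382 CPM in B73 starchy endosperm, a 7.51-fold higher mean in aleurone. The cell types overlapped, since aleurone replicate 2 lay below starchy endosperm replicate 1.

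In nkd the order of the cell types was the other way round for the mean of mas1. The levels were 1.27, 1.31 and 1.52 CPM in nkd aleurone and 3.48, 0.964 and 10.2 CPM in nkd starchy endosperm, with means of 1.365 ± 0.1375 and 4.872 ± 4.757 CPM (SD, n = 3 each). The log2 difference was -1.83 as fitted by edgeR, and the groups overlapped. Over the same libraries the aleurone marker sum was 18.7-fold higher in nkd aleurone. No fold is given for icl1 here, since it had 1 read in each nkd cell type.

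Ordered by mean, mas1 was highest in B73 aleurone, then B73 starchy endosperm, nkd starchy endosperm and nkd aleurone. From B73 starchy endosperm downwards neighbouring groups overlapped. For icl1 the order was B73 aleurone, B73 starchy endosperm and then both nkd groups. Both B73 groups overlapped, and so did both nkd groups, which lay below every B73 library.

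Set against malate synthase in the same library, the lyase made up a smaller share of the reads of both genes in every nkd library than in any B73 library. Transcript lengths were not at hand, so the share of icl1 in the reads of both genes says nothing of their relative amounts and is compared between libraries only. It was 2.17% of 46 reads, 0 of 80 and 0 of 100 in nkd aleurone replicates 1, 2 and 3, against 32.0%, 14.0% and 26.4% in the B73 aleurone replicates. The exact (Clopper-Pearson) 95% intervals were 0.055 to 11.5% in nkd replicate 1 and 30.7 to 33.3%, 10.3 to 18.6% and 25.5 to 27.3% in B73. A count of 0 allowed shares of up to 3.75% and 3.00% in nkd aleurone replicates 2 and 3, taking 3 reads as the limit. Their exact 95% upper bounds were 4.51% and 3.62%. These aleurone shares are a description with no test. The upper bound of nkd replicate 1 reached past the lower bound of B73 replicate 2.

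In starchy endosperm the share was 1.12% of 89 reads, 0 of 39 and 0 of 437 in nkd, and 37.1% of 210 reads, 12% of 535 and 66.7% of 3 in B73. The zero counts allowed up to 7.69% in nkd replicate 2 and 0.686% in nkd replicate 3. In B73 the intervals were 30.6 to 44.1%, 9.34 to 15.0% and 9.43 to 99.2%. The means were 0.375 ± 0.649% in nkd and 38.6 ± 27.4% in B73 (SD, n = 3 each), a difference of -38.2 percentage points. A two-sided exact permutation test gave p = 0.1, the smallest that 3 libraries against 3 allow. Thus nkd starchy endosperm replicate 3, with 437 mas1 reads, had no icl1 read, and B73 starchy endosperm replicate 1, with 132 mas1 reads, had 78. Replicate 2 had the lowest share of its group in both B73 cell types.

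**Figure D2:**
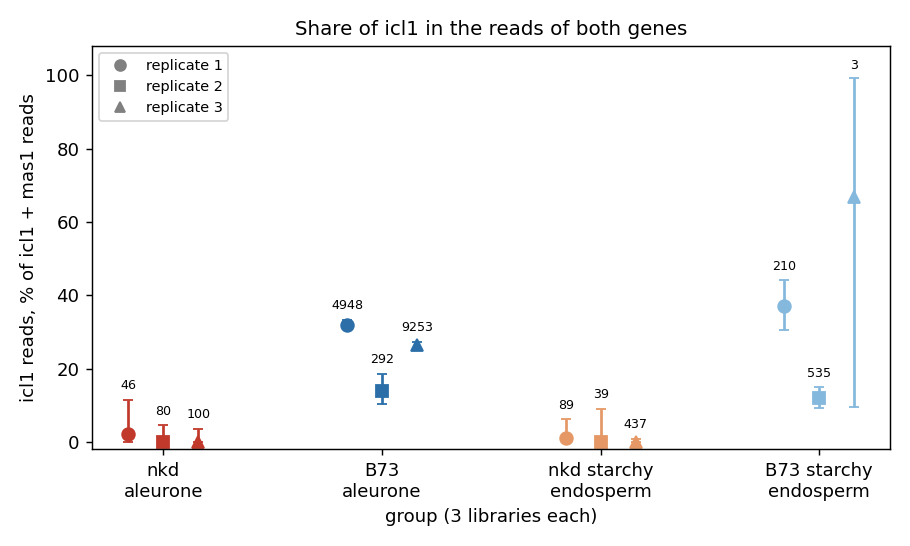
Share of icl1 in the reads of icl1 and mas1 together, in percent, for each library; bars are exact (Clopper-Pearson) 95% intervals for counting error and the numbers above them the reads of both genes. All 6 nkd libraries lie between 0 and 2.17%, and the B73 libraries between 12 and 66.7%, the highest of them on 3 reads.

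Enzymes of neighbouring reactions did not share one direction. Names allowed 14 genes to be matched, all tested in aleurone; 1 passed as higher in nkd, 2 as lower and 11 did not pass, beside 6.32% higher and 8.28% lower of all genes. Their median log2 difference was 0.24, against 0.04 over all genes tested. In starchy endosperm 13 were tested, of which 1 passed as lower and 12 did not, with a median of 0.05 against 0.12 over all genes; there 0.464% of genes passed as higher and 1.31% as lower. Citrate synthase, acyl-CoA oxidase, the multifunctional protein, peroxins, succinate dehydrogenase and fumarase were not matched by symbol and are not analysed here.

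Partners of the cycle outside the pair did not pass in either cell type. Aconitase2, which forms the isocitrate that the lyase splits, averaged 328.4 ± 110.4 normalised reads in nkd aleurone and 532.4 ± 203.8 in B73 aleurone (log2 difference -0.67, limma adjusted p 0.342). Pck2, a phosphoenolpyruvate carboxykinase, the step that takes the cycle's product towards sugar, averaged 3202 ± 1813 in nkd aleurone and 3054 ± 1326 in B73 aleurone (log2 difference 0.01, adjusted p 0.993; SD, n = 3 each). The isocitrate dehydrogenase idh2, which draws on the same isocitrate, and the malate dehydrogenases mdh2, CYTMDH and mdh6 had log2 differences of 1.07, 0.24, 0.62 and 0.25 in aleurone and did not pass. Without nkd aleurone replicate 3 idh2 passed (adjusted p 0.0399).

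Of 4 genes of fatty acid activation and breakdown, reactions that supply acetyl-CoA to the cycle, 1 passed as higher in nkd aleurone and 3 did not pass. The long-chain acyl-CoA synthetase LC-FACS with the identifier GRMZM2G339336 had 46.05, 104.8 and 111.1 normalised reads in nkd aleurone and 0.8138, 3.789 and 12.6 in B73 aleurone, so the groups did not overlap, which held in that direction for 16.8% of genes. Its log2 difference was 4.07 (SE 0.81, limma adjusted p 0.0102), and it was too low to be tested in starchy endosperm. A second LC-FACS gene, GRMZM5G840955, had a log2 difference of 0.66 (adjusted p 0.150). The thiolases, which release acetyl-CoA at the end of each round, had log2 differences of -0.07 for thiolase (adjusted p 0.923) and 0.95 for thiolase1 (adjusted p 0.123, and 0.0395 without nkd aleurone replicate 3). Thiolase1 was higher in nkd aleurone than in nkd starchy endosperm, at 168.8 ± 54.18 and 25.55 ± 15.72 CPM (log2 difference 2.72, edgeR adjusted p 0.00955; SD, n = 3 each).

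Of 2 genes for oxidases that can make glyoxylate in peroxisomes, 1 passed as lower in nkd aleurone. Hao1, a hydroxyacid oxidase of the glycolate oxidase family, averaged 1291 ± 466.2 normalised reads in nkd aleurone and 5725 ± 1469 in B73 aleurone (log2 difference -2.18, SE 0.35, limma adjusted p 0.00369; SD, n = 3 each). In starchy endosperm hao1 averaged 3238 ± 1431 in nkd and 2068 ± 1063 in B73 and did not pass (adjusted p 0.512). GOX, a glycolate oxidase, was low and did not pass in aleurone (log2 difference -1.84, adjusted p 0.239).

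Of 2 catalases, enzymes that break down hydrogen peroxide, 1 passed as lower in both cell types of nkd. Cat2 had 18.18, 16.23 and 7.575 normalised reads in nkd aleurone against 1268, 1163 and 4110 in B73 aleurone, a log2 difference of -7.01 (SE 0.56, limma adjusted p 0.000193). In starchy endosperm it had 1.64, 0 and 16.22 in nkd and 145.0, 266.0 and 139.0 in B73 (log2 difference -5.62, SE 1.17, adjusted p 0.0398); this call was lost in 8 of 13 alternatives, with adjusted p from 0.0250 to 0.155 over all 13. Cat1 averaged 11715 ± 1342 in nkd aleurone and 5850 ± 1334 in B73 aleurone and just missed the threshold (log2 difference 1.02, adjusted p 0.0557; SD, n = 3 each).

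**Figure D3:**
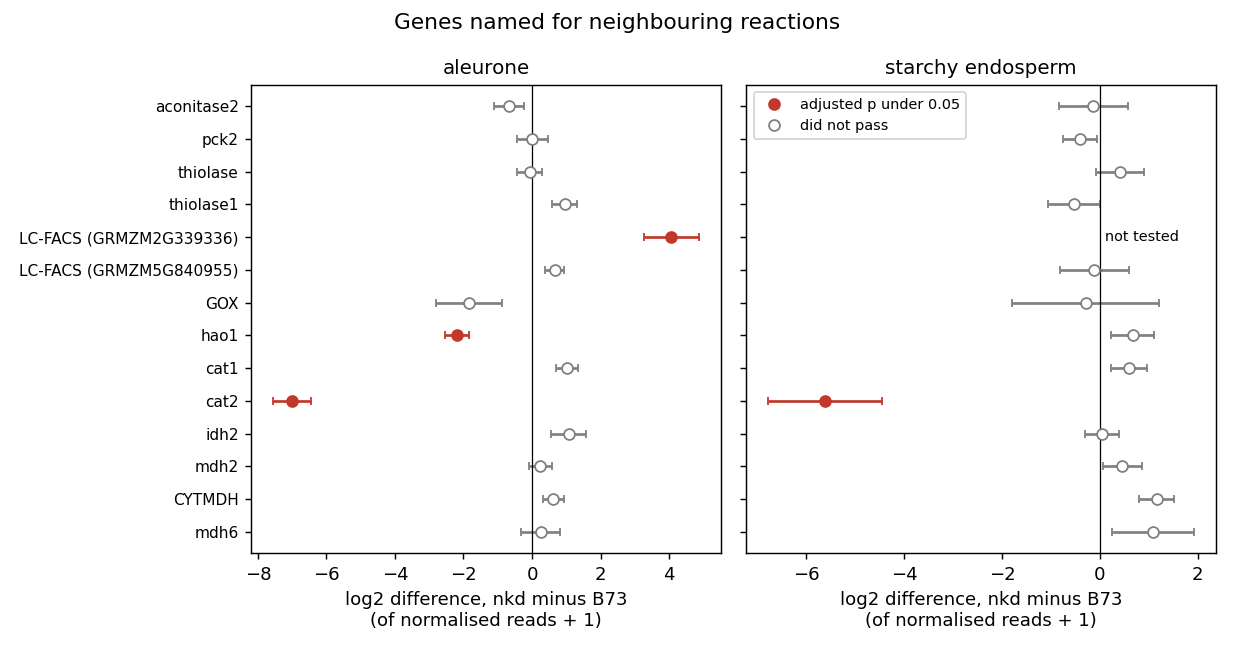
Log2 difference of normalised reads + 1, nkd minus B73, with its SE for 14 genes named for neighbouring reactions, in aleurone (left) and starchy endosperm (right); filled points had an adjusted p under 0.05 in limma. In aleurone LC-FACS GRMZM2G339336 lies at 4.07, hao1 at -2.18 and cat2 at -7.01, and in starchy endosperm cat2 lies at -5.62; open points did not pass.

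Between the cell types of nkd, thiolase1 was the 1 listed gene that passed as higher in aleurone. Hao1 and CYTMDH passed as lower, beside 6.48% of all genes called, 3.28% higher and 3.20% lower. Hao1 averaged 30.61 ± 10.33 CPM in nkd aleurone and 155.5 ± 72.57 CPM in nkd starchy endosperm (log2 difference -2.35, edgeR adjusted p 0.0130, and 0.0543 without nkd aleurone replicate 2). CYTMDH averaged 287.9 ± 35.25 CPM in nkd aleurone and 671.8 ± 185.9 CPM in nkd starchy endosperm (log2 difference -1.23, adjusted p 0.0387), a call lost in 10 of 17 alternatives. In B73 none of the 14 passed between the cell types by edgeR, where 0 of 26684 genes (0.0%) passed, 4336 had an unadjusted p under 0.05 and DESeq2 passed 1438. Leaving out B73 starchy endosperm replicate 2 let 400 genes pass in edgeR, and the cause was not tested. That library had the greatest depth, the highest aleurone marker sum and the lowest starchy endosperm marker sum of its group.

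The 5 genes most like icl1 over the 12 libraries had Pearson correlations of log2(CPM + 1) from 0.967 to 0.985, out of 26683 compared. GRMZM2G052825 (r = 0.980) averaged 0.0308 CPM in nkd aleurone and 7.48 CPM in B73 aleurone, and the others, GRMZM2G015395, GRMZM2G007252, GRMZM2G158342 and GRMZM2G099642, averaged 0 to 0.00507 CPM in nkd aleurone and 0.714 to 2.51 CPM in B73 aleurone. All 5 were at 0 in every nkd starchy endosperm library. Low nkd values follow from choosing genes for likeness to icl1. Apart from GRMZM2G052825 these genes were low in B73 aleurone too. The lowest value there was 0.258 CPM, for GRMZM2G015395, beside a 3-read limit of 0.258 CPM in B73 aleurone replicate 2. Malate synthase ranked 64th for likeness to icl1 (r = 0.894), and icl1 ranked 43rd for likeness to mas1. The 5 most like mas1 were GRMZM2G030116, GRMZM2G072218, GRMZM2G420988, GRMZM2G118019 and GRMZM2G404599, with r from 0.935 to 0.965. GRMZM2G404599 averaged 1.75 CPM in nkd aleurone and 234 CPM in B73 aleurone, and 9.09 CPM in nkd starchy endosperm and 28.5 CPM in B73 starchy endosperm. The libraries share depth, genotype and cell type between genes, so these correlations are descriptions, and the gene table gave these 10 genes no name.

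Genes beside the pair in the RefSeq gene order had their own values. GRMZM2G174855, next to icl1, averaged 636.8 normalised reads in nkd aleurone and 4115 in B73 aleurone (log2 difference -2.61, limma adjusted p 0.00259). It did not pass in starchy endosperm, at 2471 in nkd and 4025 in B73 (log2 difference -0.90, adjusted p 0.496). GOS2, the next gene beyond it, did not pass in aleurone (log2 difference -0.76, adjusted p 0.122). GRMZM2G357631, on the other side of icl1, did not pass in aleurone either (log2 difference -1.41, adjusted p 0.160). GRMZM2G102238, next to mas1, averaged 265.5 in nkd aleurone and 979.6 in B73 aleurone (log2 difference -1.87, adjusted p 0.00785), and was also lower in starchy endosperm, at 91.33 in nkd and 1128 in B73 (log2 difference -3.37, adjusted p 0.0213). GRMZM2G112072, the next gene but one, was higher in nkd aleurone, at 416.9 in nkd and 36.04 in B73 (log2 difference 3.55, adjusted p 0.00343). In starchy endosperm GRMZM2G112072 did not pass (log2 difference 0.70, adjusted p 0.874). On the other side of mas1 GRMZM2G030598 and GRMZM2G099183 did not pass (log2 differences 0.17 and -0.03, adjusted p 0.829 and 0.957). Strand use is not stated in the labels, so reads of overlapping neighbours cannot be told apart.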

How the data were processed

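The authors deposited normalised signal for 63540 transcripts in 2 tables, with 6 libraries of 1 cell type in each. FastQC, TopHat and DESeq are named in the submitters' processing notes, with no version. The genome build, gene models, strand setting and treatment of multiply mapped reads, all not given in the sources used here, could alter single genes. Throughout, 100% of the deposited signal values were whole multiples of 1 step (tolerance 0.01), so reads could be recovered. Each gene took the values of whichever of its transcripts had the highest mean over 12 libraries. T7 amplification favours the 3' part of transcripts.

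Genotypes were compared within a table with limma 3.58.1 (R 4.3.3) on log2(value + 1), leaving out genes whose mean was under 5; the pseudocount of 1 understates changes of low genes. Cell types were compared with edgeR 4.0.16 (quasi-likelihood, TMM) on recovered reads of all libraries, with a mean of at least 5 reads, since the tables were normalised separately; DESeq2 1.42.0 was an alternative. P-values were two-sided and Benjamini-Hochberg adjusted over all genes, threshold 0.05. Scripts were tested on simulated data. Python 3.11.15, pandas 2.3.3, numpy 2.4.6, scipy 1.17.1 and matplotlib 3.10.9 served the rest.

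The members, gene lists and tests were chosen with earlier results of these data known. Named genes were both members, Nkd1 and Nkd2, up to 4 genes a list by mean level, and the 5 genes most like each member; genes beside the members were added after values were seen. Tests of mas1 between cell types had been planned but are not reported, since the aleurone libraries served to choose it. List members were matched by symbol, because the gene table (RefSeq, assembly Zm-B73-REFERENCE-NAM-5.0, for names and gene order only) holds no enzyme names; it matched 18775 of 39656 identifiers (47.3%). The isocitrate and malate dehydrogenases, hao1 and LC-FACS were added in that step. Homonyms were removed by name.

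Libraries of 1 replicate number shared a flow cell, per the labels, which pairs them. Deviations from the group means correlated at -0.13, 0.068 and -0.02 for numbers 1, 2 and 3 in aleurone and at 0.038, -0.009 and -0.045 in starchy endosperm.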

Additional observations from a re-analysis of the deposited data

How the results depend on the processing

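The fall of mas1 in nkd aleurone kept its direction in all 13 alternatives (log2 -5.85 to -4.80), and so did that of icl1 (-10.04 to -8.43 with 1 library left out); its size followed the method, at -6.97 with a pseudocount of 5 and -11.36 in edgeR. In starchy endosperm icl1 stayed lower but did not pass in any of 13 (log2 -7.77 to -3.04, adjusted p 0.0833 to 0.353). For mas1 there the sign turned with a pseudocount of 5 (-0.15) and in edgeR (-0.68), and ran from -1.82 to 1.03 with 1 library left out, the lowest without B73 replicate 3. Between the cell types of B73 the mas1 difference, a description, was 2.94 in DESeq2 and ran from 2.38 to 3.45 with 1 library left out; that of icl1 ran from 2.35 to 4.53, the highest, 4.53, without B73 starchy endosperm replicate 1. In nkd that of mas1 ran from -2.32 to -0.67 over 17 alternatives.

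Of all genes, 3868 passed in aleurone (1945 to 3724 with 1 library left out, fewest without B73 replicate 1) and 437 in starchy endosperm (215 with no filter, 199 in edgeR, 25 to 211 with 1 library left out, fewest without B73 replicate 1). Between the cell types 0 passed in B73 (1438 in DESeq2, 0 to 400 with 1 library left out) and 1729 in nkd (3897 in DESeq2, 652 to 2554 with 1 library left out). The cause of these shifts was not tested. With the replicate number as a block, 2994 genes passed in aleurone, 626 in starchy endosperm, 0 between the cell types of B73 and 1623 between those of nkd. The block left icl1 (-4.91, adjusted p 0.127) and mas1 (0.01, adjusted p 0.998) in starchy endosperm on the same side of the threshold and gave mas1 differences between cell types of 2.57 in B73 and -1.53 in nkd; of the listed genes' calls it changed that of CYTMDH in nkd. With 1 library left out, icl1 in starchy endosperm ran from -5.85 without B73 replicate 3 to -3.82 without B73 replicate 1.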
